A study of Mus musculus with 6 samples.

Results

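The genes described here are enzymes and regulators of sterol and fatty acid synthesis, read in libraries labelled as liver sinusoidal endothelial cells (LSECs). LSECs are the cells that line the capillary-like vessels of the liver. Of the 60832 genes in the deposited table, 38 were chosen by symbol from the cholesterol and fatty acid synthesis pathways, with no threshold on their measured values. All 38 passed the filter on low counts and were among the 15474 genes tested. RNA-seq was performed on 6 mouse libraries labelled as primary LSECs from CRCLM xenografts (liver metastases of colorectal cancer) of HCT116 cells, 3 of which came from xenografts sensitive to bevacizumab and 3 from resistant ones. HCT116 is a human colorectal cancer cell line, and bevacizumab is an antibody against human VEGF-A. The hosts were male BALB/c-Nu mice, which lack mature T cells, in both groups, and no other altered allele is named. By the study's methods, resistant HCT116 xenografts were obtained by sustained bevacizumab and a vehicle group was given IgG, and whether the xenografts labelled sensitive were that vehicle group is not stated. All 6 libraries came from cells taken with anti-CD146 beads, and the labels state 24 h of culture for every sample. Which mice or how many of them gave each library is not given in the sources used here, so the p-values measure the spread between these samples, part of which may be technical.

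The libraries held between 17599326 and 20726684 counts on genes, and 3 counts correspond to 0.145 to 0.170 CPM (counts relative to the library's total). The summed level of 18 macrophage and Kupffer cell markers lay between 26170 and 45810 CPM, that of 18 LSEC markers between 1311 and 2816 CPM, and that of 16 pan-endothelial markers between 94.0 and 555 CPM. Most of the LSEC sum came from Stab1 and Mrc1, and Mrc1 is counted among the macrophage markers too. Per length, the median macrophage marker stood at 362.2 to 1075 FPKM (which also divides by the length of the gene) and the median LSEC marker at 1.83 to 3.91 FPKM. LSEC is used here as the label of the samples only. Replicate 2 of the sensitive group stood apart, with Pearson's r across genes of 0.860 to 0.901 with the other 5 libraries, and the values without it are given for the lists of 3 or more of the 38 genes and for the genes whose direction it decides.

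Cholesterol is built from acetyl-CoA through mevalonate, squalene and lanosterol, and the same acetyl-CoA is the source of the saturated fatty acids that elongases and desaturases then lengthen and unsaturate. Both pathways are read from genes that the SREBP transcription factors switch on: SREBP-2 mostly those of sterol synthesis, SREBP-1 mostly those of fatty acid synthesis. SREBPs are held in the endoplasmic reticulum with SCAP and the INSIG proteins while sterols are plentiful, and on their target promoters they act together with NF-Y, which binds the CCAAT box.

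The promoters of these genes are shown first because they carry the element the sterol genes have in common. RefSeq promoters on GRCm38.p6 were at hand for 31 of the 38 genes, and the letters CCAAT were searched on both strands in the 250 bases before each start. CCAAT was found for 14 of 14 sterol synthesis genes with a promoter entry, for 5 of 10 fatty acid genes, and for 25 of all 31 (80.6%), against 37.5% of 27025 genes of all kinds. The core of the sterol regulatory element, TCACNCCAC, was found only in Hmgcs1 among the 31 (3.23%, against 1.22% of all genes), and the E-box CACGTG in 6 of the 31 (19.4%, against 6.86%). CCAAT was not found in the windows of Scd3, Fads2, Acly, Acaca, Elovl6 or the regulator Scap. This says only that these letters are not in those 250 bases. In Dhcr7 and in Me1, a fatty acid gene, the CCAAT lies before an internal start, and another promoter entry of each has none. The windows below hold 60 bases each, 5′ to 3′ on the strand of the gene, and all lie before the annotated gene. Capitals mark CCAAT or its reverse complement ATTGG, and in Mvk and Mvd both stand in 1 window.
Hmgcs1, chr13:119690279-119690338, plus strand: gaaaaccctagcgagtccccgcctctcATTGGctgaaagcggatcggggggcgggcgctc
Mvk, chr5:114444209-114444268, plus strand: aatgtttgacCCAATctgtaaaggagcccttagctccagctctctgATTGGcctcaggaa
Mvd, chr8:122443423-122443482, minus strand: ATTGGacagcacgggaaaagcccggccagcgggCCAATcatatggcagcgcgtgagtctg
Lss, chr10:76531516-76531575, plus strand: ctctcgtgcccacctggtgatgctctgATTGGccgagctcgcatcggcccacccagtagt
Nsdhl, chrX:72918461-72918520, plus strand: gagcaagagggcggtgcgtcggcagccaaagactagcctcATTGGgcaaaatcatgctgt
Ebp, chrX:8193535-8193594, minus strand: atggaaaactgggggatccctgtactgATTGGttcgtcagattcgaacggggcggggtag
Sc5d, chr9:42264301-42264360, minus strand: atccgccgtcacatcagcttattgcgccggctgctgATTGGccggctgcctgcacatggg
Srebf2, chr15:82147107-82147166, plus strand: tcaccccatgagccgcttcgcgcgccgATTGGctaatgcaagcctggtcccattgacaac
Insig1, chr5:28071169-28071228, plus strand: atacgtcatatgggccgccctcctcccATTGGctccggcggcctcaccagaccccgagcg
Gpam, chr19:55127280-55127339, minus strand: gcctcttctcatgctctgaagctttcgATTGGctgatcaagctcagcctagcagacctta

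Levels were compared between genes in FPKM, which corrects for length. Acly, the enzyme that makes cytosolic acetyl-CoA from citrate and so feeds both pathways, had the highest mean level at 38.5 FPKM, with a range of 19.3 to 57.9 over the 6 libraries. Scd1, the stearoyl-CoA desaturase that makes oleate, followed at 33.8 FPKM, with a wider range of 10.1 to 71.3. In the mevalonate branch the most abundant was Mvd, the decarboxylase that makes isopentenyl diphosphate, at 29.5 FPKM (14.3 to 48.9). Ebp, a sterol isomerase, led the steps after lanosterol at 21.7 FPKM (17.5 to 35.8), and Insig1 led the regulators at 20.4 FPKM (14.0 to 24.6). These ranges overlap one another, so the order of neighbouring genes does not exceed their spread. Fasn, the fatty acid synthase itself, stood lower at 3.30 FPKM (2.64 to 4.16), and all of its libraries lay under all of those of Acly. At the low end were Pnpla3, a lipid droplet protein, at 0.373 FPKM and with 0 counts in sensitive replicate 2, Fdps at 0.395 FPKM, and Acacb, the mitochondria-associated form of acetyl-CoA carboxylase, at 0.496 FPKM. Of the 100-base stretches of Fdps, 54.1% also occur in Gm43738, Gm3571 or Gm5873, so its counts depend on how shared reads were treated and are uncertain. Acaca, the cytosolic carboxylase, shares 39.8% of its stretches with Gm5182, and its level of 1.67 FPKM is uncertain in the same way.

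**Figure D1:**
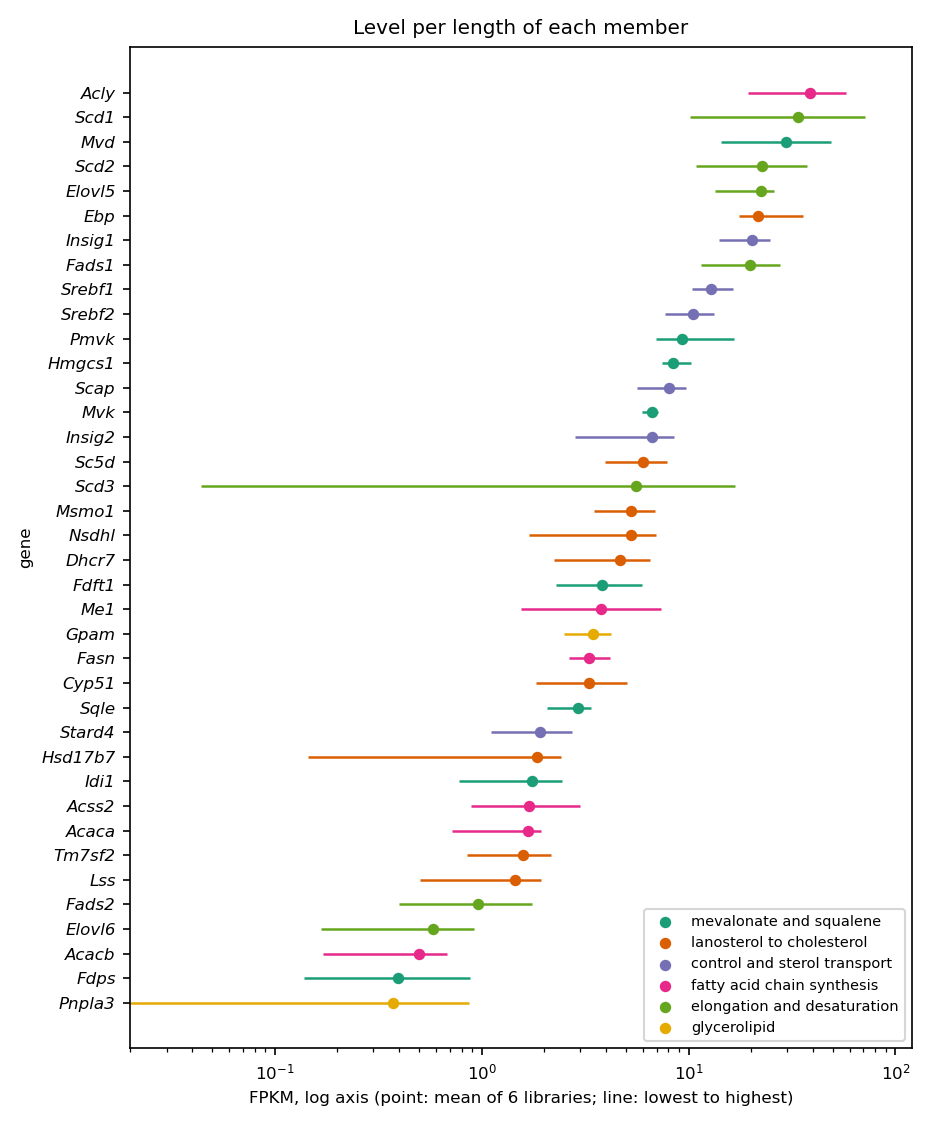
Level per length of the 38 genes in FPKM on a log axis, ordered by mean, with the point at the mean of 6 libraries, the line from the lowest to the highest library, and colour for the list. Acly (38.5 FPKM) and Scd1 (33.8 FPKM) are at the top, Pnpla3 (0.373 FPKM, 0 in 1 library, so its line runs off the axis) is at the bottom, and among the genes with counts in every library Scd3 has the longest line on this log axis.

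How far a gene moved among the 6 libraries differed widely. The SD of log2 CPM was smallest for Hmgcs1, the HMG-CoA synthase, at 0.14, lower than for all but 5.30% of the genes tested. Mvk (0.15) and Srebf1 (0.16) were nearly as even. Scd3 had the largest SD of the 38, 3.09, at the 100th percentile of all genes, followed by Hsd17b7 (1.45), Pnpla3 (1.34) and Scd1 (1.17). The median over the 38 genes was 0.487, against 0.469 over all genes tested.

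The comparison of resistant with sensitive xenografts asks whether the levels of these genes differed after sustained bevacizumab. Fold changes were above 0 for 28 of the 38 genes (73.7%), against 50.8% of all genes tested, and their median log2 fold change was 0.25, against 0.01 over all genes. Leaving out sensitive replicate 2, these were 27 genes and a median of 0.12, and 11 of the 38 took the opposite sign. In edgeR's quasi-likelihood test 0 of the 38 had a Benjamini-Hochberg adjusted p under 0.05, as had 0 of all genes (0%), and the smallest adjusted p was 0.940. DESeq2's Wald test called 0 of the 38 and 24 of all genes (0.155%), and limma-voom called 0 of the 38. At an unadjusted p under 0.05 edgeR gave 4 of the 38 (10.5%, against a background of 3.08%), DESeq2's Wald test 5 (background 4.73%) and limma-voom 4 (background 2.48%). Dhcr7, Acss2 and Fads2 were the 3 on the higher side (7.89%, background 0.536%), and Scd3 was the 1 on the lower side (2.63%, background 2.54%). Sensitive and resistant libraries were fully separate for 8 genes (21.1%, background 9.02%): 7 with all resistant libraries higher (18.4%, background 4.64%), namely Dhcr7, Acss2, Fads2, Lss, Tm7sf2, Scap and Me1, and 1 with all resistant libraries lower (2.63%, background 4.38%), Scd3. Full separation by itself fixes the exact permutation test at p = 0.1, two-sided, the smallest that 3 against 3 libraries allow. For these 8 genes that p-value thus adds nothing to the separation. The permutation p-values below are two-sided too, and are given for genes whose groups overlap. In bulk RNA, fewer cells of a type and less RNA per cell cannot be told apart, which holds for every difference below.

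**Figure D2:**
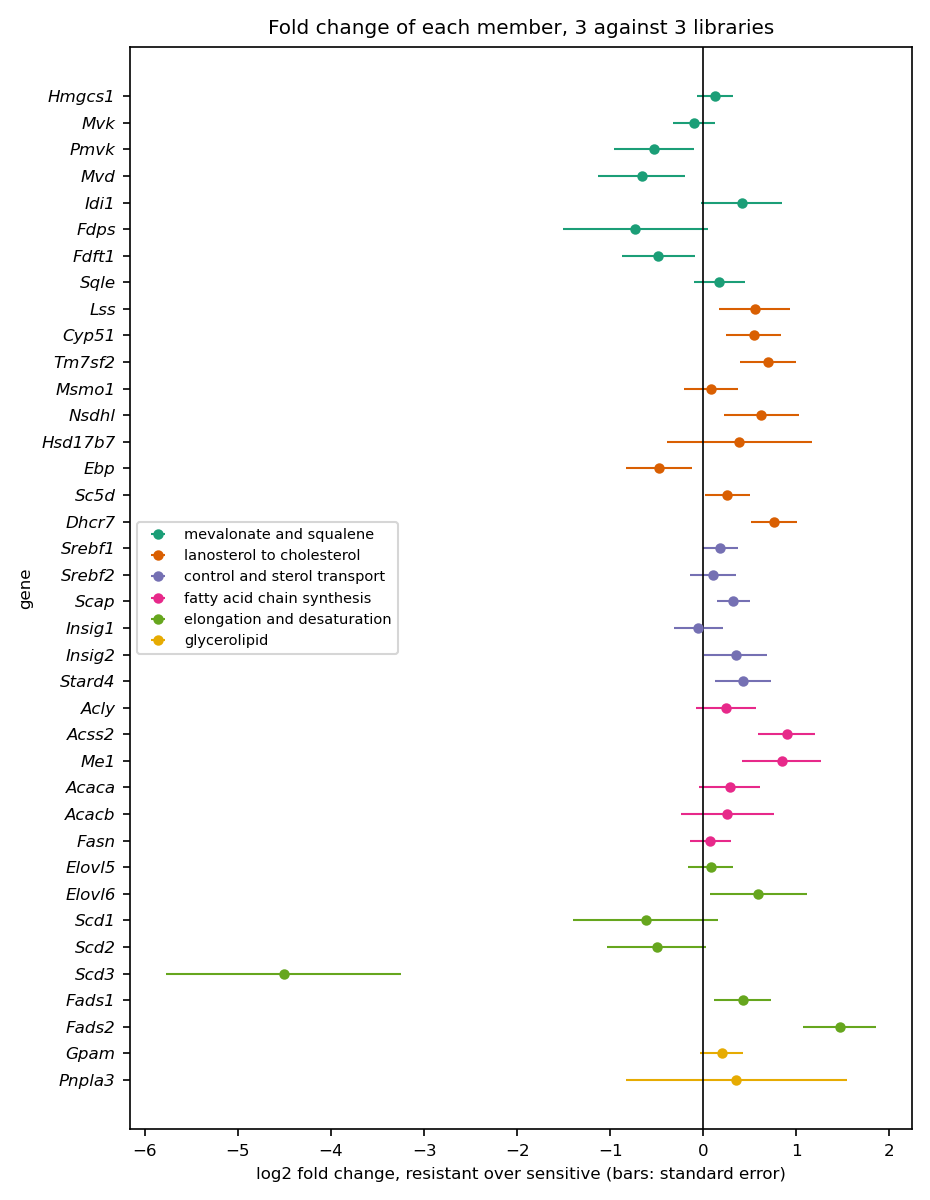
Log2 fold change of each of the 38 genes, resistant over sensitive (x axis), with bars of 1 standard error and colour for the list. Fads2 (1.47) is farthest to the right, Scd3 (-4.51) farthest to the left, and most other points lie between 0 and 1.

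In the mevalonate and squalene steps, 3 of 8 fold changes were above 0, the median was -0.29, no gene had an unadjusted p under 0.05 and all 8 overlapped between the groups. Below, libraries are given in the order of replicates 1, 2 and 3. Mvd stood at 51.1, 104 and 49.97 CPM in the sensitive group and at 70.9, 32.4 and 26.2 CPM in the resistant group. Sensitive replicate 2 was the highest of the 6, and resistant replicate 1 lay above the other 2 sensitive libraries. Its log2 fold change was -0.66 with a standard error of 0.46 (exact permutation p = 0.3), and it was -0.24 without sensitive replicate 2 and -1.21 without resistant replicate 1, where the unadjusted p was under 0.05. Fdps, which makes farnesyl diphosphate for sterols and prenyl groups, had 1.63, 4.22 and 0.587 CPM in the sensitive group and 1.95, 1.08 and 0.820 CPM in the resistant group, from 12 to 65 counts. Again sensitive replicate 2 was the highest, and the log2 fold change went from -0.73 (exact permutation p = 0.7) to 0.20 without it. Pmvk (-0.53), the kinase before Mvd, and Fdft1 (-0.48), the squalene synthase, were also highest in that library, at 32.6 and 28.0 CPM, and without it their log2 fold changes were 0.08 and -0.08. Without it, 6 of the 8 fold changes were above 0 and the median was 0.11. Hmgcs1, at the entry, differed little, with 36.9 ± 1.94 CPM in the sensitive and 40.4 ± 5.38 CPM in the resistant group (SD, n = 3). The remaining log2 fold changes were 0.41 (0.14 without sensitive replicate 2) for Idi1, the isopentenyl diphosphate isomerase, 0.17 for Sqle, the squalene epoxidase, and -0.10 (0.01) for Mvk, the mevalonate kinase. Of the stretches of Fdft1, 21.5% also occur in Ctsb or Gm6781, of Idi1 24.7% in Gm13502, Gm48574 or Gm35570, and of Hmgcs1 9.93% in Gm48342. The counts of these genes depend on how shared reads were treated.

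In the steps from lanosterol to cholesterol, counted here with Lss, which makes lanosterol, 8 of 9 fold changes were above 0. Their median was 0.54, and 3 genes (33.3%, background 4.64%) had all resistant libraries above all sensitive ones. Without sensitive replicate 2, 8 of 9 fold changes were again above 0, with a median of 0.26. Dhcr7 (chromosome 7 of GRCm38, 143823145 to 143848410), the reductase of a last step to cholesterol, had 21.9, 14.9 and 23.2 CPM in the sensitive group and 30.6, 38.4 and 33.0 CPM in the resistant group. The highest sensitive library lay well under the lowest resistant one. Means were 20.03 ± 4.47 and 34.0 ± 3.98 CPM (SD, n = 3), a 1.70-fold difference. The log2 fold change was 0.76 with a standard error of 0.25 (adjusted p = 0.940 in edgeR's quasi-likelihood test, and 0.550 to 1 over the alternatives). Without sensitive replicate 2 it was 0.58, and the unadjusted p stayed under 0.05 with each library left out in turn except resistant replicate 2. None of the 100-base stretches of Dhcr7 occur in another gene.

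Tm7sf2, a sterol reductase, stood at 5.70, 4.28 and 5.87 CPM in the sensitive group and at 7.02, 9.71 and 8.97 CPM in the resistant group. The groups were separate, with a log2 fold change of 0.70 and a standard error of 0.30 (adjusted p = 0.940 in edgeR's quasi-likelihood test), and it was the gene that DESeq2 added to the 4 with an unadjusted p under 0.05. Of its stretches, 15.7% also occur in Vps51, and whether the authors counted by strand is not given in the sources used here. Lss, which closes squalene epoxide to lanosterol, had 15.1, 6.23 and 16.3 CPM in the sensitive group and 17.2, 17.6 and 20.6 CPM in the resistant group. The groups only just parted, and sensitive replicate 2 was far under the rest, so the log2 fold change of 0.55 (adjusted p = 0.940 in edgeR's quasi-likelihood test) was 0.22 without that library. Nsdhl (0.62) and Hsd17b7 (0.39), which act together in taking methyl groups off the sterol ring, showed the same low library, Hsd17b7 with 13 counts there against 207 to 253 elsewhere. Without it their log2 fold changes were 0.28 and -0.15.

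Ebp was the 1 gene of this stretch with a fold change under 0. It stood at 38.04, 94.6 and 46.3 CPM in the sensitive group and at 39.9, 45.2 and 43.4 CPM in the resistant group. The other 5 libraries lay close together, and the log2 fold change went from -0.48 (exact permutation p = 0.6) to 0.01 without sensitive replicate 2. Cyp51, the lanosterol demethylase, had 11.7 ± 2.87 CPM in the sensitive and 17.1 ± 4.12 CPM in the resistant group (SD, n = 3), a log2 fold change of 0.54 (exact permutation p = 0.2). Sc5d, a sterol desaturase, and Msmo1, the methylsterol oxidase, had log2 fold changes of 0.26 and 0.08, with overlapping groups.

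Among the 6 regulators and carriers, 5 fold changes were above 0, with a median of 0.25. The groups were separate for 1 gene, with all resistant libraries higher (16.7%, background 4.64%). All 6 were above 0 without sensitive replicate 2, with a median of 0.13. Scap, the escort that carries SREBPs to the Golgi, stood at 57.2, 48.0 and 53.1 CPM in the sensitive group and at 67.9, 62.5 and 67.9 CPM in the resistant group. The groups were 52.8 ± 4.59 and 66.1 ± 3.13 CPM (SD, n = 3), a 1.25-fold difference. Its log2 fold change was 0.32 with a standard error of 0.18 (adjusted p = 0.940 in edgeR's quasi-likelihood test), and 6.38% of its stretches also occur in 5830462I19Rik. Insig1, itself a target of SREBPs, had 54.4, 77.7 and 61.3 CPM in the sensitive group and 67.2, 44.0 and 75.1 CPM in the resistant group. The groups overlapped throughout, with a log2 fold change of -0.05 (exact permutation p = 0.8) whose sign turned without sensitive replicate 2 (0.09) or resistant replicate 2 (0.15). Insig2, which is not driven by SREBPs in the same way, had 24.0, 11.2 and 25.1 CPM in the sensitive group and 21.2, 26.7 and 29.0 CPM in the resistant group, a log2 fold change of 0.35 that was 0.05 without sensitive replicate 2. The ratio of Insig1 to Insig2 in FPKM was thus 7.78 in sensitive replicate 2 and between 1.85 and 3.57 in the other 5. The genes of the transcription factors differed little: Srebf1 had 67.7 ± 5.58 and 76.9 ± 8.93 CPM and Srebf2 72.7 ± 17.04 and 78.1 ± 13.1 CPM in the sensitive and resistant groups (SD, n = 3). The ratio of Srebf1 to Srebf2 in FPKM stayed between 1.05 and 1.44. Stard4, a carrier of cholesterol between membranes, had a log2 fold change of 0.43 with overlapping groups. These are transcript levels, and the cleaved, active SREBP proteins were not measured here.

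In fatty acid chain synthesis, 6 of 6 fold changes were above 0, with a median of 0.27. The groups were separate for 2 genes, with all resistant libraries higher (33.3%, background 4.64%). Without sensitive replicate 2, 3 of 6 fold changes were above 0, with a median of 0.01. Without sensitive replicate 3 all 6 were, with a median of 0.52. Acss2 (chromosome 2 of GRCm38, 155517948 to 155585724), which makes acetyl-CoA from acetate, stood at 14.4, 10.2 and 11.4 CPM in the sensitive group and at 15.2, 22.04 and 29.9 CPM in the resistant group. The groups touched closely at resistant replicate 1, and the other 2 resistant libraries were clearly higher. Means were 12.02 ± 2.11 and 22.4 ± 7.34 CPM (SD, n = 3), a 1.86-fold difference. The log2 fold change was 0.90 with a standard error of 0.31 (adjusted p = 0.940 in edgeR's quasi-likelihood test, and 0.645 to 1 over the alternatives). Without sensitive replicate 3, resistant replicate 2 or resistant replicate 3 the unadjusted p was no longer under 0.05, nor was it with the replicate number as a block, and 2.91% of its stretches also occur in Ggt7 or Acss2os. Me1, the malic enzyme that supplies NADPH, had 12.1, 13.0 and 5.97 CPM in the sensitive group and 14.0, 13.8 and 28.0 CPM in the resistant group. Resistant replicate 3 stood well above the rest. The log2 fold change was 0.84 with a standard error of 0.42 (adjusted p = 0.940 in edgeR's quasi-likelihood test) and 0.435 without that library, and 15.7% of its stretches occur in Gm7049, Gm48795 or Gm7329.

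Acly, the most abundant of the 38, stood at 204.5, 117 and 229 CPM in the sensitive group and at 287, 175 and 191.5 CPM in the resistant group. The groups overlapped, and the log2 fold change of 0.25 (exact permutation p = 0.6) was -0.00262 without sensitive replicate 2, its lowest library. Fasn had 35.04 ± 3.77 and 36.9 ± 6.78 CPM in the sensitive and resistant groups (SD, n = 3), a log2 fold change of 0.07 with a standard error of 0.22. Acaca (0.28) and Acacb (0.26) were lowest in sensitive replicate 2, and their log2 fold changes were -0.01 and -0.10 without it.

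In elongation and desaturation, 4 of 7 fold changes were above 0 and 3, those of the Scd genes, below, with a median of 0.08. Without sensitive replicate 2 there were 3 of 7 above 0, with a median of -0.13. Scd3 (chromosome 19 of GRCm38, 44203269 to 44244016), a stearoyl-CoA desaturase known best from the sebaceous glands of skin, stood at 46.1, 67.8 and 4.89 CPM in the sensitive group and at 0.997, 4.06 and 0.154 CPM in the resistant group. These are 963, 1045 and 100 counts against 22, 79 and 3 counts. Sensitive replicates 1 and 2 were far above the rest, while sensitive replicate 3 and resistant replicate 2 lay next to each other. Means were 39.6 ± 32.0 and 1.74 ± 2.06 CPM (SD, n = 3). The log2 fold change was -4.51 with a standard error of 1.27, which is 22.8-fold higher in the sensitive group (adjusted p = 0.940 in edgeR's quasi-likelihood test, and 0.247 to 1 over the alternatives). Without sensitive replicate 2 it was -3.89, and over each library left out in turn it lay between -6.05 and -3.89 with the unadjusted p under 0.05 each time. Scd4, the fourth desaturase and too low to be tested, had 11, 19 and 4 counts in the sensitive group and 1, 2 and 0 in the resistant group.

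Markers of other cells moved with Scd3 in part. The summed level of 12 neutrophil markers, of which none was at 0 in any library, reached 5024, 7995 and 652.5 CPM in the sensitive group and 2031, 1588 and 334.1 CPM in the resistant group. Sensitive replicates 1 and 2 were highest for the markers and for Scd3, but resistant replicate 1 held more neutrophil marker RNA than sensitive replicate 3 and less Scd3. The part of these cells in the difference was not tested. Of 10 adipocyte markers 8, among them Adipoq and Plin1, were at 0 in at least 1 library, and nearly all of their sum came from Fabp4 and Pparg. It was 139.6, 161.2 and 157.9 CPM in the sensitive and 143.5, 32.05 and 94.98 CPM in the resistant group. Like Scd3 it was highest in sensitive replicate 2, but sensitive replicate 1 lay under sensitive replicate 3 and resistant replicate 1. The part of adipocytes was not tested either.

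Scd1 had 157, 83.5 and 351 CPM in the sensitive group and 275, 60.8 and 48.9 CPM in the resistant group. Sensitive replicate 3 and resistant replicate 1 were the highest, so the groups overlapped. The log2 fold change was -0.62 with a standard error of 0.78 (exact permutation p = 0.5), and it was 0.10 without sensitive replicate 3 and -1.84 without resistant replicate 1. Scd2, the form best known from brain and developing liver, had 193, 102 and 142 CPM in the sensitive group and 55.5, 195.6 and 58.3 CPM in the resistant group. Resistant replicate 2 was the highest library for this gene and the other 2 resistant libraries the lowest (log2 fold change -0.50, exact permutation p = 0.4). The 3 neighbouring desaturase genes of chromosome 19 thus peaked in different libraries. The ratio of Scd2 to Scd1 in FPKM was 1.10, 1.09 and 0.362 in the sensitive group and 0.181, 2.88 and 1.07 in the resistant group. Scd3 made up 11.7%, 26.8% and 0.983% of the CPM of the 3 genes in the sensitive group and 0.3005%, 1.56% and 0.143% in the resistant group. Only 2.63% of the stretches of Scd1, 0.900% of those of Scd2 and 2.49% of those of Scd3 occur in another gene. This is a share of sequence, not of reads. Scd3 had 22 and 3 counts in resistant replicates 1 and 3, against 6073 and 954 for Scd1. The lowest Scd3 counts thus depend on how shared reads were treated and are uncertain.

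**Figure D3:**
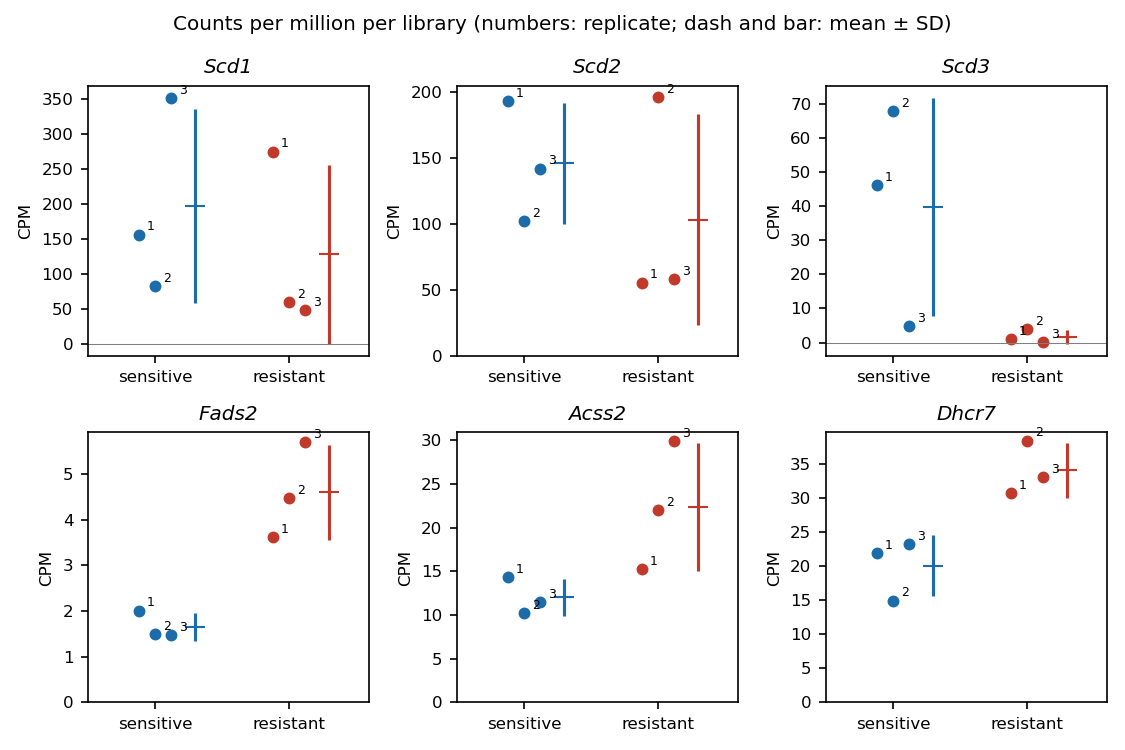
CPM of Scd1, Scd2, Scd3, Fads2, Acss2 and Dhcr7 in each library (points with replicate numbers; dash and bar are the mean ± SD of 3). The Scd1 and Scd2 points of the groups overlap, the Scd3 points of sensitive replicates 1 and 2 (46.1 and 67.8 CPM) stand far above the rest, and the Fads2, Acss2 and Dhcr7 points of the resistant group lie above those of the sensitive group.

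Fads2 (chromosome 19 of GRCm38, 10062765 to 10101746), the desaturase that starts the route from essential to long polyunsaturated fatty acids, had 2.01, 1.49 and 1.47 CPM in the sensitive group and 3.62, 4.47 and 5.69 CPM in the resistant group. Counts were 42, 23 and 30 against 80, 87 and 111, so the gene was low in every library, and the groups were well apart. Means were 1.66 ± 0.306 and 4.59 ± 1.04 CPM (SD, n = 3), a 2.76-fold difference. The log2 fold change was 1.47 with a standard error of 0.40 (adjusted p = 0.940 in edgeR's quasi-likelihood test, and 0.207 to 1 over the alternatives). Without sensitive replicate 2 it was 1.39, and over each library left out in turn it lay between 1.29 and 1.63, again with the unadjusted p under 0.05 each time. None of its stretches occur in another gene. The summed level of 14 hepatocyte markers, hepatocytes being a main site of fatty acid and sterol synthesis, was 234, 369.1 and 330.4 CPM in the sensitive group and 325.4, 538.1 and 376 CPM in the resistant group, with 4 of them (Cps1, Hnf4a, Tat and Apob) at 0 in at least 1 library. Trf gave most of each sum, with 140.5, 261.7 and 291.1 CPM in the sensitive and 252.4, 300.3 and 260.6 in the resistant group. These sums overlapped between the groups and were highest in resistant replicate 2, as was Dhcr7, while Fads2 and Acss2 were highest in resistant replicate 3. Their part in the levels of Fads2, Acss2 and Dhcr7 was not tested. Fads1, the desaturase of the next step, which lies beside Fads2 and was more abundant per length (a mean of 19.85 against 0.958 FPKM), had 82.0, 62.8 and 97.9 CPM in the sensitive group and 125, 132.5 and 68.7 CPM in the resistant group. Here the groups overlapped through resistant replicate 3, with a log2 fold change of 0.43 (exact permutation p = 0.3). The elongases Elovl5 and Elovl6 had log2 fold changes of 0.08 and 0.59, and both were lowest in sensitive replicate 2, without which they were -0.13 and 0.22.

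The glycerolipid genes did not differ beyond their spread. Gpam, which puts the first fatty acid on glycerol 3-phosphate, stood at 20.1, 19.0 and 25.2 CPM in the sensitive group and at 23.9, 28.6 and 21.3 CPM in the resistant group. The groups overlapped, with a log2 fold change of 0.20 (exact permutation p = 0.3). Pnpla3 had 0 to 28 counts per library, too few to show a difference of that size, with a log2 fold change of 0.36 and a standard error of 1.18, and -0.20 without sensitive replicate 2.

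Set side by side, the sterol genes and the other fatty acid genes had medians above 0 and the Scd genes a median below 0. Of the 17 sterol genes, 11 fold changes were above 0 with a median of 0.17. Of the 3 Scd genes, 0 were above 0 with a median of -0.62, and of the 10 other fatty acid genes all 10 were above 0 with a median of 0.36. The mean log2 CPM of the sterol genes was 3.999, 3.82 and 3.76 in the sensitive group and 4.04, 4.04 and 4.09 in the resistant group. The sterol mean was thus nearly level, and its groups only just parted. The mean of the Scd genes was 6.80, 6.38 and 5.98 in the sensitive group and 4.68, 5.20 and 3.17 in the resistant group, so the groups were separate, with most of the distance coming from Scd3. The mean of the other fatty acid genes was 4.36, 3.66 and 4.22 in the sensitive group and 4.58, 4.58 and 4.70 in the resistant group. These groups were separate too, in the opposite direction. Summed CPM, in which abundant genes weigh most, overlapped between the groups for all 3 lists. The Scd sums were 395.7, 253.4 and 497.8 in the sensitive group and 331.6, 260.4 and 107.4 in the resistant group. Those of the other fatty acid genes were 479.5, 308.1 and 508.2 against 605.4, 497.2 and 486.6. Those of the sterol genes were 345.2, 448.5 and 319.7 against 365.6, 358.2 and 378.4. The sterol mean minus the Scd mean ranged from -2.81 to -2.22 in the sensitive and from -1.16 to 0.92 in the resistant libraries, which were separate. Minus the mean of the other fatty acid genes it ranged from -0.47 to 0.16 in the sensitive and from -0.60 to -0.54 in the resistant libraries, separate in the opposite direction. The sterol mean minus the mean of all 13 fatty acid genes ranged from -0.92 to -0.47 in the sensitive and from -0.69 to -0.25 in the resistant libraries, which overlap. Without sensitive replicate 2, 14 of 17 sterol genes and 6 of 10 other fatty acid genes were above 0, with medians of 0.17 and 0.12, and the Scd genes stayed at 0 of 3 with a median of -0.99. The difference in direction between the lists was not tested.

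**Figure D4:**
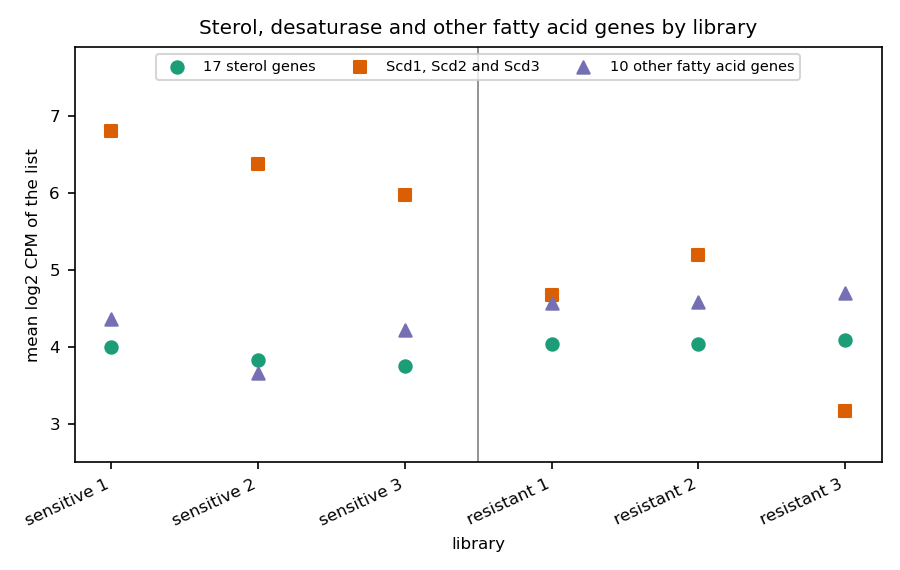
Mean log2 CPM of 17 sterol genes, of Scd1, Scd2 and Scd3, and of 10 other fatty acid genes in each library. The Scd mean runs from 5.98 to 6.80 in the sensitive and from 3.17 to 5.20 in the resistant libraries, while the sterol mean stays between 3.76 and 4.09.

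Sensitive replicate 2 moved the 38 genes in both directions. Against the mean of all other libraries, sensitive and resistant together, 27 of them were lower and 11 higher there. The log2 differences ran from -3.54 for Hsd17b7 to 4.47 for Scd3, and they hold part of the difference between the groups. Besides Scd3, the largest positive deviations were those of Fdps (1.83), Pmvk (1.33), Mvd (1.26), Ebp (1.15) and Fdft1 (1.07). Several of these transcripts are short: 4 of the 6 genes with under 3000 exonic bases were higher in that library, and 7 of the 32 longer ones. Over the 38 genes the deviation correlated with log2 exon length at r = -0.234, and over all 15474 genes tested at r = -0.251, both across genes of 1 set of libraries and given as a description. The part of length in these deviations was not tested further.

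**Figure D5:**
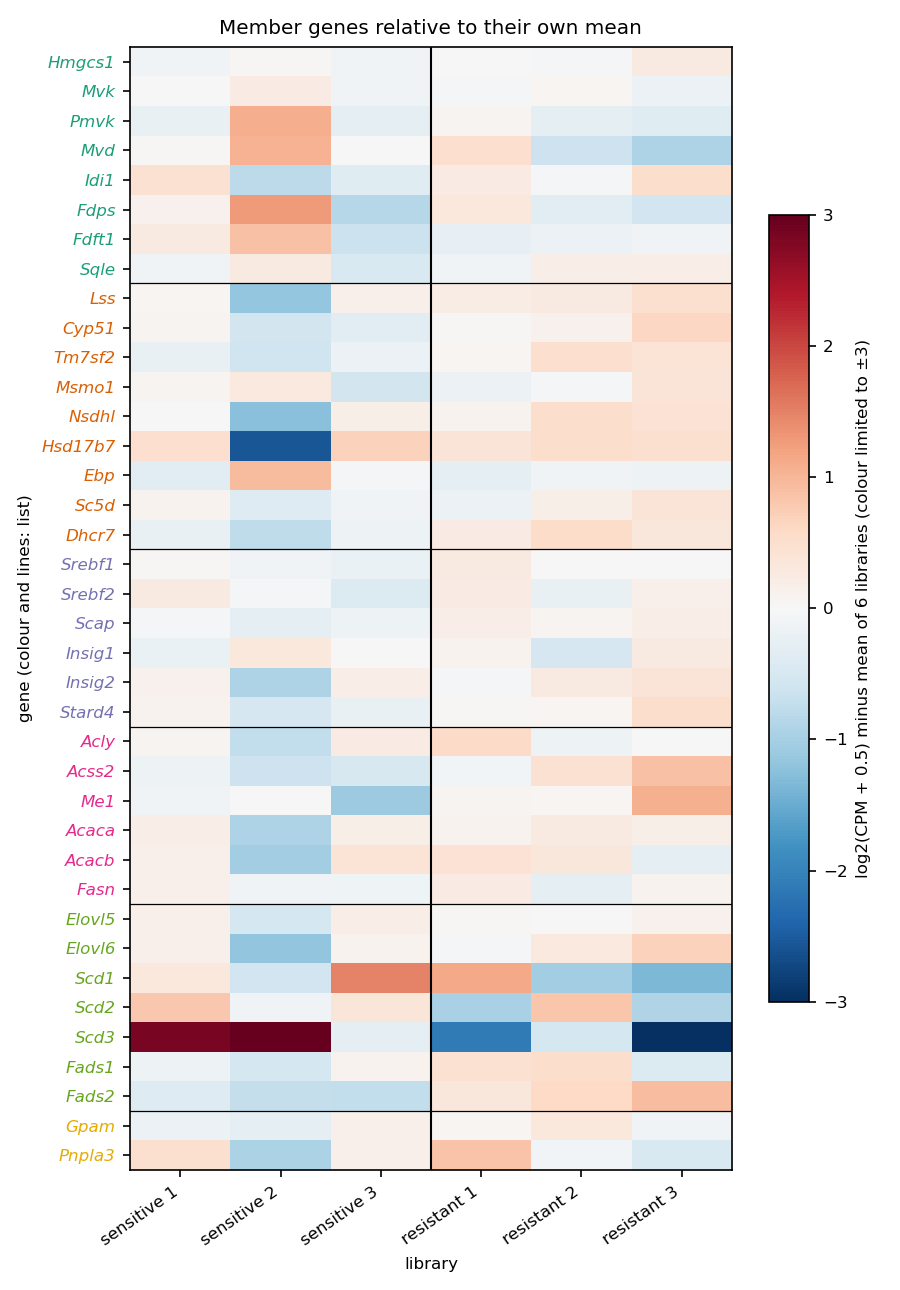
Each of the 38 genes (rows, ordered and coloured by list) in each library (columns) as log2(CPM + 0.5) minus its own mean over 6 libraries, with colour limited to ±3. Sensitive replicate 2 stands out in red for Pmvk, Mvd, Fdps, Ebp and Scd3 and in blue for Hsd17b7, Nsdhl and Lss, and Fads2 and Dhcr7 are red in all 3 resistant libraries.

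A further 21 genes of sterol and lipid synthesis, chosen from pathway knowledge, were read in the same way. Of the 17 that could be tested, 12 fold changes were above 0, with a median of 0.19. In edgeR's quasi-likelihood test 0 of them had an unadjusted p under 0.05 on the higher side (background 0.536%) and 1 on the lower side (5.88%, background 2.54%). This was Dgat2, the last enzyme of triglyceride synthesis, with 17.04, 20.6 and 10.2 CPM in the sensitive group and 9.92, 7.91 and 4.61 CPM in the resistant group. The groups were separate but nearly met, with a log2 fold change of -1.09 (standard error 0.40, adjusted p = 0.940 in edgeR's quasi-likelihood test). Of the 17, 2 were separate between the groups (11.8%, background 9.02%). The other was Tecr, with all resistant libraries higher and a log2 fold change of 0.16. Mbtps2, a protease that releases SREBPs, had a log2 fold change of 0.46, Hsd17b12 of the elongation cycle 0.39, and Ggps1, which makes geranylgeranyl diphosphate, 0.41, each with overlapping groups. Scd4, Elovl3, Thrsp and Mlxipl had too few counts to be tested, and the last 2, which are lipogenic regulators of liver and fat, reached at most 3 and 25 counts in any library.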

How the data were processed

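RNA-seq was performed on 6 libraries labelled as primary LSECs, grouped and numbered by their sample titles. The authors aligned reads with HISAT2 2.0.5, counted them on genes with featureCounts 1.5.0-p3 and deposited raw counts. FPKM values, which use the library total and 1 length per gene, were deposited by the authors beside them. The submitters' processing notes name mm9, while the lengths implied by the deposited FPKM equal GENCODE M21 (GRCm38) exon lengths for 97.8% of 9148 genes with over 200 counts. A table of the authors' own comparison, with fold changes and p-values, was not used. The labels describe ribosomal RNA depletion, and the study's methods also name poly(A) selection. The series' design text speaks of LX-2 cells, and the sample labels were followed.

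The tests used edgeR 4.0.16 under R 4.3.3: filterByExpr with the groups given, TMM normalization and the two-sided quasi-likelihood test on 15474 genes, with no covariate, Benjamini-Hochberg adjustment and a threshold of 0.05. Standard errors are those implied by the F statistic. CPM are relative to the TMM-adjusted total, and log2 CPM used a prior count of 2. Exact permutation tests were run on log2(CPM + 0.5). The biological coefficient of variation was 42.2%. DESeq2 1.42.0 and limma-voom with limma 3.58.1 were alternatives, beside DESeq2 size factors, no filter, at least 10 counts in every library, the replicate number as a block, and leaving out 1 library at a time. Within groups, no 2 libraries were alike within sampling noise (chi-square per gene 38.5 or more). Without molecular identifiers, the floor of 3 counts covers counting error only.

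The 38 genes, their lists and the 21 further genes were chosen with earlier results of these data known. Values per library are given for genes with an unadjusted p under 0.05, with groups that do not overlap, among the 6 largest fold changes, or with the highest mean FPKM of 1 of 6 lists, and up to 4 of the further genes are named. Other values were added to describe the remaining members, and Tecr was added because its groups do not overlap. The summed level of 12 stellate cell and fibroblast markers (89.8 to 169.1 CPM in the sensitive and 91.05 to 369.5 CPM in the resistant libraries) was read beside those in the report. Shared sequence is the share of a gene's 100-base exonic stretches that occur in another gene of GENCODE M21. Scripts were tested on simulated data. Figures were drawn with matplotlib 3.10.9.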

Additional observations from a re-analysis of the deposited data

How the results depend on the processing

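No gene had an adjusted p under 0.05 except under DESeq2's Wald test, with 24 genes of all tested and 0 of the 38 (unadjusted p under 0.05: 732 genes with DESeq2, 476 with edgeR). The median log2 fold change of the sterol genes came to 0.266 when low counts were not filtered, and 0.121 to 0.28 with each library left out in turn, highest without resistant replicate 1. That of the fatty acid genes was -0.00262 without sensitive replicate 2, 0.122 without resistant replicate 1 and 0.458 without sensitive replicate 3. Leaving out sensitive replicate 1, 2 or 3 gave 13, 10 and 11 genes of the 38 whose groups do not overlap. The shares over all genes were then 19.6%, 19.3% and 26.7%. Leaving out resistant replicate 1, 2 or 3 gave 16, 9 and 9, against 23.4%, 15% and 12.6% of all genes. At an unadjusted p under 0.05 in edgeR's quasi-likelihood test, the first 3 of these fits each gave 4 genes of the 38. The shares over all genes were 3.76%, 3.96% and 6.53%. The other 3 gave 6, 3 and 3, against 3.91%, 1.51% and 1.03%. Among the genes with values per library, the direction turned for Insig1 with no filter (0.0311), and with a library left out for Insig1 (-0.202 to 0.154), Fdps (-1.17 to 0.204), Ebp (-0.712 to 0.0127), Acly (-0.00262 to 0.446) and Scd1 (-1.84 to 0.0966). Over all 38 genes, 15 turned without some library, 11 of them without sensitive replicate 2. The cause was not tested. Of 227 values for 19 named genes under 12 alternatives, 220 kept their direction and their side of the adjusted threshold. At 10 or more counts in every library Scd3 and Pnpla3 were not tested. Same-numbered libraries did not deviate together (r of -0.000932, 0.0343 and 0.194), so the numbers were not taken as pairs. With the replicate block, 0 genes had an adjusted p under 0.05, 3 of the 38 an unadjusted one (3.02% of all genes), and the sterol and fatty acid medians were 0.196 and 0.365.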
